A study of Sus scrofa with 4 samples.

Results

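The feedback arm of ERK signalling was followed through 10 genes. These are the phosphatase genes DUSP1, DUSP4, DUSP5 and DUSP6, the Sprouty genes SPRY1, SPRY2 and SPRY4, the Spred genes SPRED1 and SPRED2, and the transcription factor gene ETV5. They were taken by gene symbol from the deposited table of 20491 genes, and all 10 were found and were abundant enough to be tested, among 15552 tested genes. The data are RNA sequencing of pig (Sus scrofa) granulosa cells, the somatic cells that line the ovarian follicle. Both groups were transfected: 2 libraries carry a negative control and 2 carry an agent that interferes with YTHDF2, written siYTHDF2 below. The labels give no siRNA sequence, culture time or animal age, and do not say whether the libraries were made from separate cultures or animals. The p-values therefore rest on library-to-library spread that may be technical only.

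The ERK kinases stand last in a cascade that runs from receptor tyrosine kinases through RAS, RAF and MEK. Active ERK switches on genes whose products shut the same cascade down, and the levels of these transcripts are widely used as a readout of pathway output. Dual-specificity phosphatases remove the activating phosphates from ERK itself, Sprouty proteins act between the receptor and RAF, and Spred proteins bring the RAS inactivator neurofibromin to the membrane. In the mouse ovary, ERK in granulosa cells is needed for the response to the ovulatory luteinizing hormone surge. YTHDF2 binds N6-methyladenosine in mRNA and promotes the decay of the bound transcript.

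Library totals ran from 47209177 to 54841851 counts. The YTHDF2 transcript was lower in both siYTHDF2 libraries (counts 1122 and 1279) than in both controls (3660 and 3356), which is -1.49 on the log2 fold change scale (SE 0.09, edgeR adjusted p = 1.49e-05). Over all tested genes, 1408 were called higher and 1644 lower at an edgeR adjusted p under 0.05, with a median log2 fold change of 0.00. Without control replicate 1 there were 879 higher genes and without siYTHDF2 replicate 1 there were 791. In limma on log2(FPKM + 1) the split was 574 higher against 1529 lower. Of the 9 theca and stroma markers tested 7 were lower (77.8%, against 10.6% of all tested genes) and 2 not called. The summed CPM (counts scaled to a common library total) of that list was 17241 and 17517 in the controls and 8584 and 8423 with siYTHDF2. The 11 tested granulosa markers had 1 higher and 1 lower member (9.09% each), near the 9.05% and 10.6% of all tested genes. Only 3 of the 11 markers had a positive log2 fold change, and the median of these markers was -0.08. Their summed CPM was 2903 to 3064 in the controls and 2909 to 3044 with siYTHDF2. The gap junction gene GJA1 carries most of that sum (TMM-scaled CPM 2515 and 2386 in the controls, 2106 and 2246 with siYTHDF2) and SERPINE2 was called higher (216 and 224 against 444 and 424), so the sum does not show that the single markers held their level. The aromatase gene CYP19A1 was nearly absent (counts of 0, 11, 0 and 6). These 3 markers were named after their values were seen. Markers of endothelium, leukocytes and epithelium were low in both groups, with summed CPM between 5.10 and 16.0 in every library. Whether the lower stroma markers took part in the changes below was not tested, and in these bulk samples fewer cells of a type and less RNA per cell cannot be told apart.

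Part of the feedback genes rose after interference with YTHDF2. DUSP1, DUSP4, DUSP5, SPRY2 and SPRY4 were called higher, 5 of 10 against 9.05% of all tested genes. The members were chosen with earlier results of these data known, so the shares describe them and do not test for an excess. None of the 10 was called lower, against 10.6% of all tested genes; none was lower at an unadjusted p under 0.05 in edgeR either, and DESeq2 and limma also called none lower. The median log2 fold change of the 10 genes was 0.34, and 9 of them had a positive value, as did 50.1% of all tested genes. The positive values include 0.02 for DUSP6 and 0.03 for SPRY1, and each of these turned negative in 4 of the 16 alternative fits. In 7 of the 10, both siYTHDF2 libraries lay above both controls, an arrangement seen in 30.1% of all tested genes. The rises were moderate, from 1.31-fold for DUSP1 to 1.92-fold for DUSP5.

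**Figure D1:**
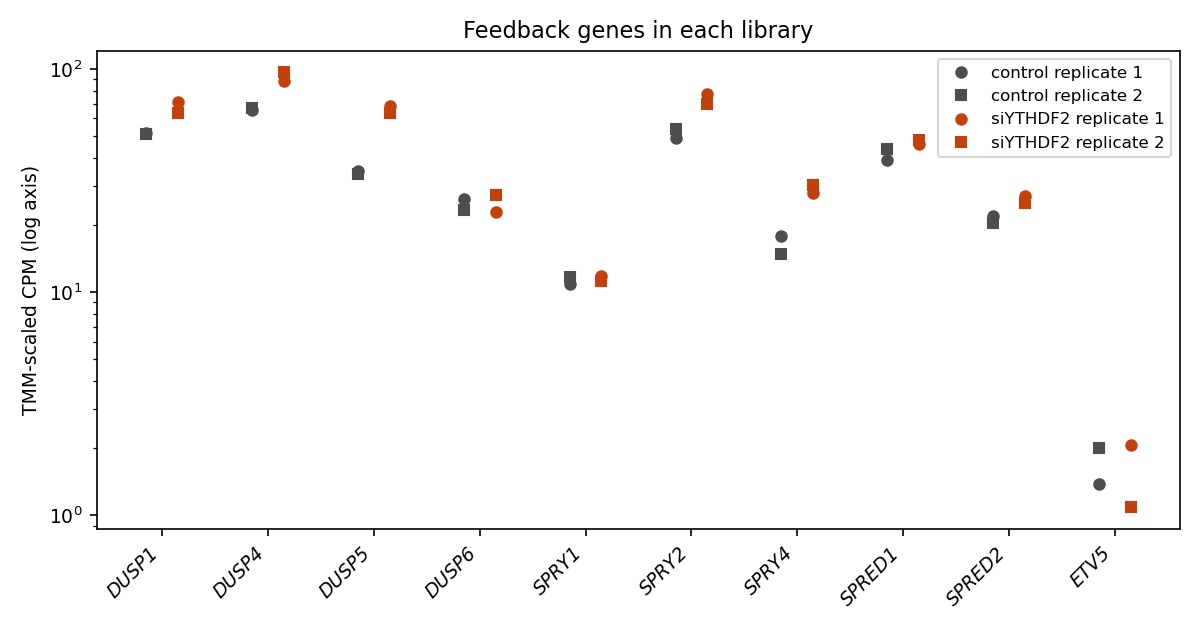
TMM-scaled CPM on a log axis for each of the 10 genes, with control libraries in grey and siYTHDF2 libraries in orange, replicate 1 as circles and replicate 2 as squares. CPM is not divided by transcript length, so each gene is to be read against itself. DUSP5 and SPRY4 show the widest gap between groups, and the groups overlap for DUSP6, SPRY1 and ETV5.

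Among the phosphatases, DUSP5 moved most. DUSP5 is a nuclear phosphatase specific for ERK, and its gene (ENSSSCG00000040815) spans positions 120906343 to 120919384 of chromosome 14 in the deposited table, for which the sources used here name no pig genome build. Its counts were 1839 and 1829 in the controls and 3256 and 3499 with siYTHDF2. After scaling by TMM (edgeR's correction for library composition) these became 34.9 and 33.8 CPM in the controls and 68.4 and 63.4 CPM with siYTHDF2. The control pair agreed within 0.05 and the siYTHDF2 pair within 0.11 on the log2 scale, and the groups were far apart. The log2 fold change was 0.94 (SE 0.08, 95% interval 0.75 to 1.13, adjusted p = 0.00011), larger than that of 96.8% of all tested genes. DUSP5 was called in each of the 16 alternative fits, with values of 0.82 to 0.99.

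DUSP4 and DUSP1 rose by less. DUSP4 is another nuclear phosphatase that acts on ERK, and its gene lies on chromosome 15 from 55491087 to 55508455. Its CPM was 65.3 and 66.6 in the controls and 88.2 and 96.4 with siYTHDF2, which gave a log2 fold change of 0.48 with an SE of 0.08 (adjusted p = 0.00239). DUSP1, on chromosome 16 from 51458020 to 51461086, encodes a nuclear phosphatase that acts on p38 and JNK as well as ERK and is an immediate early gene. Its CPM was 51.9 and 51.3 in the controls and 71.3 and 63.4 with siYTHDF2, which gave a log2 fold change of 0.38 with an SE of 0.08 (adjusted p = 0.0120). Groups did not overlap for either gene. Leaving out siYTHDF2 replicate 1 ended the DUSP1 call (log2 fold change 0.29, adjusted p = 0.0903), and limma on log2(FPKM + 1) called neither DUSP1 (adjusted p = 0.168) nor DUSP4 (adjusted p = 0.0670).

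DUSP6, the cytoplasmic phosphatase specific for ERK, did not follow the other phosphatases past the threshold. Its gene lies on chromosome 5 from 93302975 to 93307504. The CPM was 26.1 and 23.4 in the controls and 22.9 and 27.2 with siYTHDF2, so the siYTHDF2 libraries stood at either end and the controls between them. The log2 fold change was 0.02 (SE 0.12, adjusted p = 0.935), and its 95% interval ran from -0.25 to 0.29. That interval lies below the interval of DUSP5, and the count of DUSP5 per count of DUSP6 was 1.34 and 1.45 in the controls and 2.98 and 2.33 with siYTHDF2.

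The make-up of the phosphatase transcripts differed between the groups. FPKM, the authors' value per transcript length and sequencing depth, allows levels of different genes to be set side by side, and each of the 4 phosphatase genes has 1 listed transcript. Summed over the 4 genes, the deposited FPKM was 53.3 and 52.8 in the controls and 68.0 and 76.0 with siYTHDF2. DUSP1 was the most abundant in every library, at 22.8 ± 0.045 FPKM in the control group and 28.3 ± 0.572 FPKM after siYTHDF2 (SD, n = 2 each). DUSP5 took 23.1% and 22.9% of the summed FPKM in the controls and 31.6% and 30.4% with siYTHDF2, while the share of DUSP6 was 14.5% and 13.3% in the controls and 8.87% and 10.9% with siYTHDF2. DUSP5 lay above DUSP4 in the controls (12.2 ± 0.155 and 10.7 ± 0.256 FPKM), and the gap was wider with siYTHDF2 (22.3 ± 1.13 and 14.3 ± 2.36 FPKM; SD, n = 2 each).

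**Figure D2:**
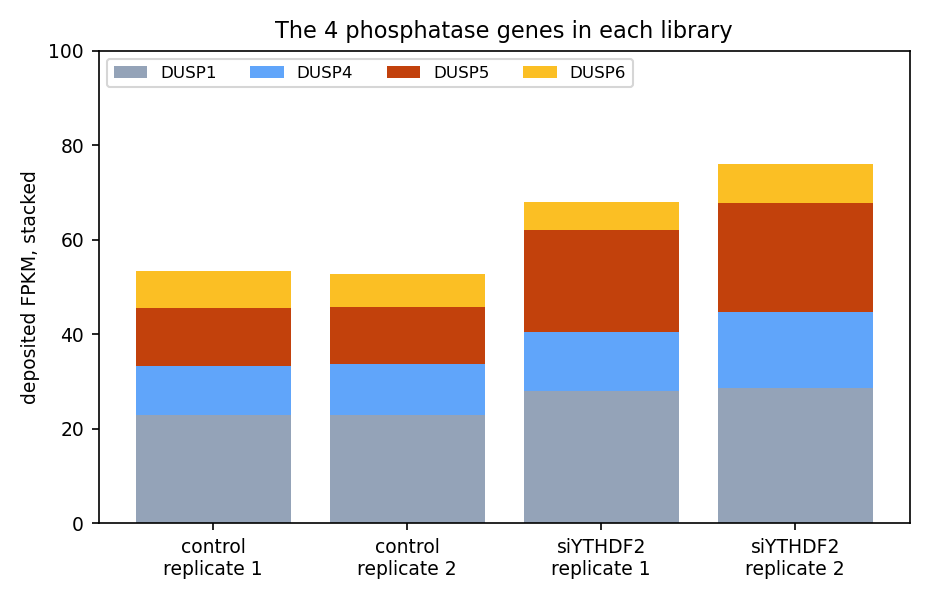
Deposited FPKM of DUSP1, DUSP4, DUSP5 and DUSP6 stacked for each of the 4 libraries, with the bars starting at 0. The stacks reach 53.3 and 52.8 in the controls and 68.0 and 76.0 with siYTHDF2, and the DUSP5 segment grows from 12.3 and 12.1 to 21.5 and 23.1.

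The deposited FPKM of siYTHDF2 replicate 1 ran lower than its counts, since that library held 1.15 times as many counts per FPKM, relative to its total count, as control replicate 1, against 0.984 and 0.999 in the other two libraries. Shares within a library do not depend on this, but comparisons between groups are shifted toward lower siYTHDF2 values in FPKM. The log2 fold change of DUSP5 was 0.82 in limma on log2(FPKM + 1) against 0.94 in edgeR. For the receptor gene KIT, which fell, it was -0.77 against -0.72. For SPRED1 the groups overlapped in FPKM and not in CPM.

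Of the Sprouty genes, SPRY4 and SPRY2 rose. Sprouty proteins are induced by receptor tyrosine kinase signalling and dampen it. SPRY4 lies on chromosome 2 from 143877338 to 143892292. Its counts were 939 and 799 in the controls and 1330 and 1662 with siYTHDF2, or 17.8 and 14.8 against 27.9 and 30.1 CPM. The lowest siYTHDF2 value exceeded the highest control, and the log2 fold change was 0.83 (SE 0.12, 95% interval 0.56 to 1.11, adjusted p = 0.00175).

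SPRY2, on chromosome 11 from 52153704 to 52159156, stood at 48.9 and 54.0 CPM in the controls and 77.5 and 69.8 with siYTHDF2. The log2 fold change was 0.52 (SE 0.09, adjusted p = 0.00357), and the groups did not overlap. SPRY2 was the most abundant Sprouty transcript, at 18.7 ± 1.49 FPKM in the control group and 25.4 ± 0.751 FPKM after siYTHDF2 (SD, n = 2 each), next to 1.44 ± 0.176 and 2.46 ± 0.387 for SPRY4. That order holds on the authors' FPKM scale, where counts and FPKM together imply a length of 2738 bases for SPRY2 but 11220 for SPRY4 and 14090 for SPRY1. SPRY1 and SPRY4 each have 4 listed transcripts, and the median implied length of genes with 4 is 6268 bases.

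SPRY1 did not pass the test. Its gene model on chromosome 8 is long, from 100450269 to 100861855, and overlaps no other gene of the table. The CPM was 10.9 and 11.7 in the controls and 11.8 and 11.2 with siYTHDF2, and the groups overlapped. Its log2 fold change was 0.03 (SE 0.13, 95% interval -0.28 to 0.33, adjusted p = 0.929). The upper end of that interval lies below the lower end of the SPRY4 interval. The count of SPRY4 per count of SPRY1 was 1.64 and 1.26 in the controls and 2.37 and 2.69 with siYTHDF2.

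Neither Spred gene passed the threshold. SPRED2, on chromosome 3 from 76527776 to 76649651, had 22.0 and 20.4 CPM in the controls and 26.9 and 25.0 with siYTHDF2. The groups did not overlap, but the log2 fold change of 0.29 (SE 0.11) came with an unadjusted p of 0.0208 and an adjusted p of 0.0826 in edgeR. SPRED1, on chromosome 1 from 132902304 to 133015742, had 38.9 and 43.9 CPM in the controls and 46.2 and 48.1 with siYTHDF2. Its log2 fold change was 0.19 (SE 0.09, 95% interval -0.02 to 0.39, adjusted p = 0.190). In all 16 alternative fits both values were positive, from 0.10 to 0.28 for SPRED1 and from 0.18 to 0.35 for SPRED2, and neither gene was called in any of them. SPRED1 was the more abundant of the pair in every library, with 5.39 ± 0.515 FPKM for SPRED1 and 3.69 ± 0.162 for SPRED2 in the control (SD, n = 2 each).

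ETV5 encodes an ETS transcription factor of the PEA3 group, whose transcript follows fibroblast growth factor and ERK signalling, and unlike the other 9 genes it does not encode an inhibitor of the cascade. It lies on chromosome 13 from 123873350 to 123930200. Its counts were the lowest of the set, 73 and 108 in the controls and 98 and 60 with siYTHDF2, and the groups overlapped. The log2 fold change was -0.11 (SE 0.40, adjusted p = 0.890) with a 95% interval of -1.0 to 0.78. That interval stops short of the 0.94 of DUSP5, but it is wide, and the value was 0.28 without siYTHDF2 replicate 2. Changes inside the interval, such as the 0.48 of DUSP4, could not be told from none at these counts. ETV1 and ETV4, the other PEA3 genes, named here after their values were seen, rose by 0.78 (adjusted p = 0.00730) and 0.81 (adjusted p = 0.0103) on the log2 scale.

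**Figure D3:**
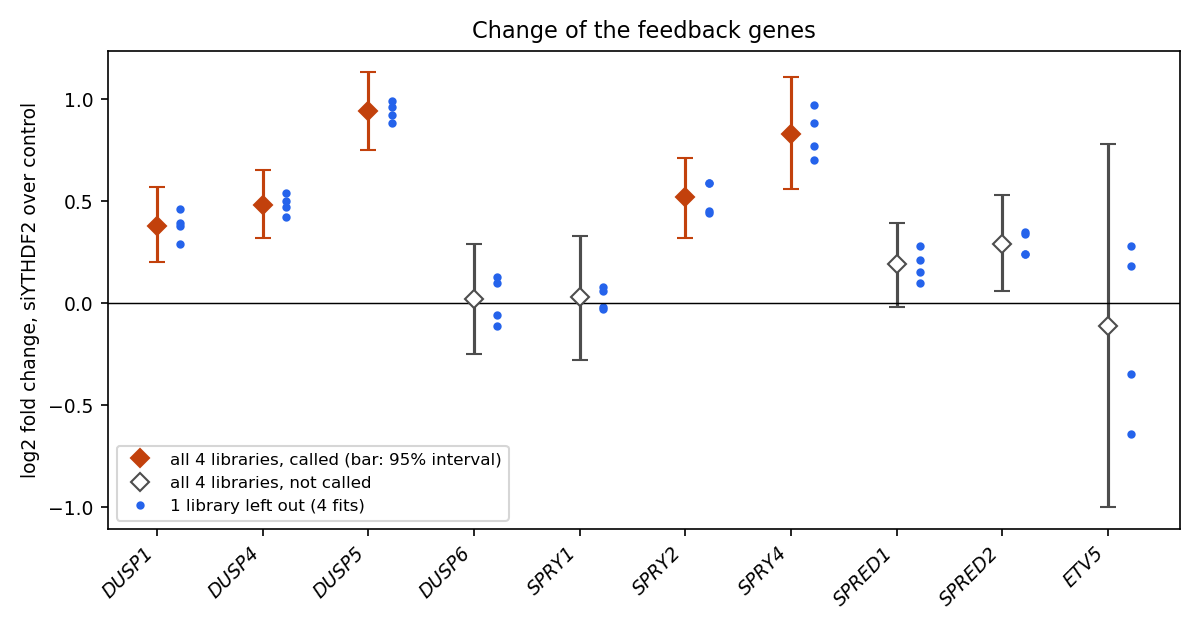
Log2 fold change of siYTHDF2 over control for each gene with its 95% interval (diamonds, filled orange where called), and the values of the 4 fits that each leave out 1 library (blue dots). DUSP1, DUSP4, DUSP5, SPRY2 and SPRY4 stay above 0 in every such fit, whereas the dots of DUSP6, SPRY1 and ETV5 fall on both sides of 0.

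The 10 genes lie on 10 different chromosomes, and none overlaps another gene of the deposited table. The 4 phosphatase genes, and none of the other members, carry the KEGG MAPK signalling annotation in that table. By mean FPKM the members covered most of the range of tested genes, from ETV5 above 20.0% of them, through SPRY1 above 27.3% and SPRED2 above 49.4%, to SPRY2 above 85.5% and DUSP1 above 87.6%. The 5 called genes included SPRY4, above only 37.4%, and the uncalled DUSP6 stood above 63.0%. Calls were thus not limited to the most abundant members.

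The other genes of the pathway are set beside the shares of all tested genes called higher (9.05%) and lower (10.6%). Of 7 further dual-specificity phosphatase genes 2 were higher and 5 not called, with a median log2 fold change of 0.25. DUSP16, which encodes a phosphatase of JNK and p38, rose from 19.0 and 18.8 CPM to 36.4 and 36.2 CPM (log2 fold change 0.94, SE 0.10, adjusted p = 0.000260), and DUSP8, with similar substrates, changed by 0.92 on the same scale (SE 0.21, adjusted p = 0.0140). The DUSP8 call was lost without control replicate 1 (adjusted p = 0.0578). Among 21 tested genes listed as feedback inhibitors of other kinds, 4 were higher (19.0%) and 2 lower (9.52%), with a median of -0.05. The lower share is near that of all tested genes. That list is broad, and whether SPSB4, IER3 or any other of its genes inhibits the cascade in these cells was not tested. SPSB4, an adaptor of a ubiquitin ligase, had counts of 22 and 29 in the controls and 225 and 203 with siYTHDF2 (log2 fold change 3.13, SE 0.32, adjusted p = 0.000259). The immediate early gene IER3 had a value of 1.11 (adjusted p = 0.000811) but was not called without control replicate 1 (adjusted p = 0.103) or without control replicate 2 (adjusted p = 0.101). DAB2IP, a RAS GTPase-activating protein, fell by 0.74, and CBLB, a ubiquitin ligase that acts on receptors, fell by 0.47 on the log2 scale. SPRED3, the remaining Spred gene, named after its value was seen, was higher by 0.68 (adjusted p = 0.0120). SPRY3, the remaining Sprouty gene, had a log2 fold change of -0.30 and was not called (edgeR adjusted p = 0.556). Among the further phosphatase genes, DUSP9 (-0.47) and DUSP10 (-0.17) also had negative values and were not called. These genes too were named after their values were seen.

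Of 19 receptor genes upstream of the cascade 3 were higher (15.8%) and 6 lower (31.6%), and the median log2 fold change was -0.35. KIT, the receptor of KIT ligand from granulosa cells, went from 209 and 199 CPM to 118 and 129 CPM (log2 fold change -0.72, adjusted p = 0.000189). FGFR2 fell by 0.59 (adjusted p = 0.000603) and PDGFRA, which is also on the stroma list, by 0.50 (adjusted p = 0.00146), whereas MET, the receptor of hepatocyte growth factor, rose by 0.82 (adjusted p = 0.000426). NTRK2, the receptor of BDNF, named outside the rule, was too low to test.

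The kinases and adaptors of the cascade itself had 4 higher (12.5%) and 6 lower (18.8%) of 32, with a median of 0.08. The higher share is near the 9.05% of all tested genes. MAPK3, which encodes ERK1, had a log2 fold change of -0.21 (adjusted p = 0.0580) and was called lower with upper quartile scaling (adjusted p = 0.0441). The RAS activator RASGRP3 fell by 0.74 and the RAS relative MRAS by 0.41, and MAP2K2, one of the kinases that activate ERK, and MKNK2, a kinase activated by ERK, were higher by 0.37 and 0.48 on the log2 scale. MAP2K2 and MKNK2 were not called in limma on log2(FPKM + 1) (adjusted p = 0.172 and 0.0668), where 1 cascade gene was higher and 3 were lower. Without control replicate 1, 3 cascade genes were lower.

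Genes induced by ERK in many cell types had 8 higher (29.6%) and 1 lower (3.7%) of 27, with a median of 0.13. Across the alternative fits, the lower count ran from 0 to 4 (3 with upper quartile scaling) and the higher count from 1 to 10. CCND1, which encodes cyclin D1, went from 66.8 and 66.3 to 176 and 170 CPM. PLAUR, the urokinase receptor, rose by 0.72 (adjusted p = 0.000615) and the cytokine gene LIF by 0.58 (adjusted p = 0.00179). The immediate early gene EGR1 went the other way, from 30.7 and 22.5 CPM to 11.2 and 9.90 CPM (log2 fold change -1.33, SE 0.16, adjusted p = 0.000570). The 232 tested genes that the deposited table assigns to the KEGG MAPK pathway, which leave out the members but share genes with these lists, had 27 higher (11.6%) and 29 lower (12.5%) with a median of -0.02, near the 9.05% and 10.6% of all tested genes.

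**Figure D4:**
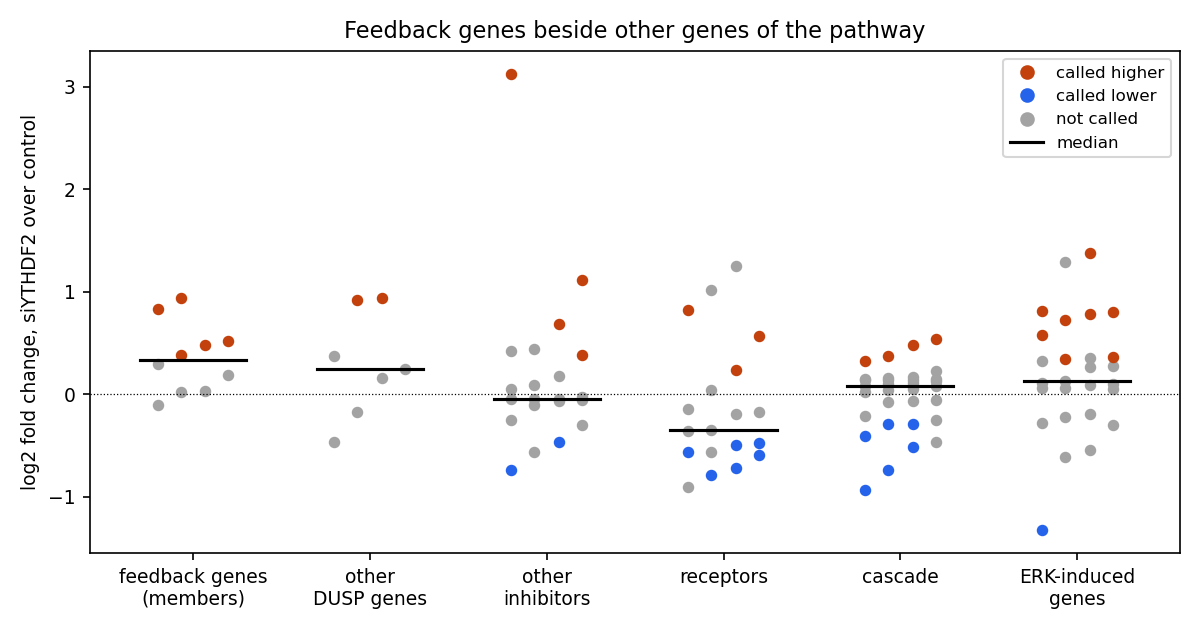
Log2 fold change of siYTHDF2 over control for the 10 feedback genes and for the tested genes of 5 lists from the same pathway, 1 point per gene, coloured by the edgeR call, with a bar at each median. The medians are 0.34 for the 10 genes, 0.25, -0.05, -0.35, 0.08 and 0.13 for the lists from left to right, and EGR1 is the lowest point of the last list at -1.33.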

How the data were processed

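The authors deposited 1 table with, per the file headers, counts and FPKM of each gene in 4 libraries. How these values were made was left as unknown, because the only tool in the submitters' processing notes, Bowtie 0.12.2, stands beside a mouse build and the labels' protocols speak of retinas, while the gene identifiers belong to the pig. Counts were tested over the whole table with edgeR 4.0.16 (R 4.3.3): expression filter, TMM, robust two-sided quasi-likelihood test with group as the only term, and Benjamini-Hochberg adjustment over 15552 genes at 0.05. The standard error is the absolute log2 fold change divided by the root of the F statistic. CPM per gene is TMM-scaled; summed CPM of marker lists uses total counts. The test was checked on simulated counts. DESeq2 1.42.0 and limma 3.58.1 (trend on log2 of FPKM plus 1 or 0.1, and voom) were alternatives. Replicates differed beyond counting error (chi-square per degree of freedom 14.9 in the control and 14.8 in the siYTHDF2 pair). That does not show whether they are separate cultures or animals, and each library was treated as 1 sample. The members and lists were chosen with earlier results of these data known. The genes named are all members, YTHDF2, MAPK3, and up to 4 called genes with the smallest p per pathway list; any other gene is said to stand outside this rule where it is named. A few listed genes, among them PEBP1, CYP17A1, CDH5 and CD3E, were not analysed or are not reported here.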

Additional observations from a re-analysis of the deposited data

How the results depend on the processing

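Among the 16 alternative fits, 5 members were called higher in 12, and none was called lower in any. Without trend and robust shrinkage edgeR called 1 member (DUSP5), with 61 of all genes higher and 213 lower and at most 1 higher and 0 lower genes per pathway list; DUSP1, DUSP4, SPRY2 and SPRY4 then had adjusted p-values of 0.12, 0.0781, 0.0875 and 0.0617. Limma called 3 members on log2(FPKM + 1), with 574 of all genes higher, and 3 on log2(FPKM + 0.1), with 548. Leaving out 1 library at a time left 4 to 5 members called, 791 to 1287 of all genes higher and 1170 to 1436 lower. The sign of 3 uncalled members turned: DUSP6 was -0.05 in both limma fits on FPKM and -0.11 to 0.13 with 1 library left out, SPRY1 was -0.02 and -0.04 in those limma fits and -0.03 to 0.08 with 1 library left out, and ETV5 was -0.64 to 0.28 with 1 library left out. The replicate numbers do not pair the libraries by any label, and the replicate deviations correlated at -0.148 over genes. With the replicate number as a block, 1020 genes were higher and 1361 lower and 5 members were called; with the crossed pairing, added after seeing the data, these were 1946, 1996 and 5. With median ratio, upper quartile or total count scaling, the median of all tested genes moved by no more than 0.04. The number of libraries, 2 per group, limits what can be detected, and for ETV5 and DUSP8 low counts do so too.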
